A study of Mus musculus with 5 samples.

Results

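Isg15, Ifit1, Ifit3, Bst2, Zbp1, Phf11b, Ifi27l2a, Irf7 and Lgals3bp are 9 interferon-stimulated genes, picked by symbol from the 2926 mouse genes measured in single T cells of the brain after stroke. All 9 had a row in the deposited table. The cells were CD3+ T cells of wildtype C57BL/6 mice, sorted from the brain hemisphere on the side of a photothrombotic stroke (vessels of the cortex are clotted by lighting up an injected dye). Trained mice could use running wheels, starting on day 2 after surgery, and untrained mice could not. Both groups had the stroke and both were killed on day 14. The table held 692 cells. Of them 9.54, 17.9 and 24.3% came from the 3 trained samples and 20.8 and 27.5% from the 2 untrained samples, so that the smallest sample, trained 1, had 66 cells and the largest, untrained 2, had 190. The labels do not say how many mice a sample holds, so the p-values below measure the spread between these samples only.

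Interferons are secreted proteins that cells release when they sense viral or misplaced nucleic acid. Type I interferons bind a receptor whose kinases activate transcription factors that bind a DNA element, the interferon-stimulated response element. Type II interferon, made by T cells and NK cells, acts through another receptor and at another element. T cells both make interferon and respond to it, and interferon-stimulated genes are also a known programme of microglia and other myeloid cells of the injured brain.

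The table does not hold molecules. Each value is a signed score of a gene in a cell, between -2.12 and 3.74, with 72.7% of values below 0, and neither the unit of the score nor the depth per cell is known. A score above 0 is therefore a high value within that table, not a detected transcript, and levels cannot be compared between genes. Untrained sample 2 stood apart: its median SD over cells was 0.728 across genes, against 0.370 to 0.515 in the other samples. In it the highest score of each of the 9 genes was 2.52, a value reached in 6 to 15 cells each. The same highest score was found in 1335 of all 2967 rows (genes and spike-ins), and the remaining 1632 rows had a mean score of 0 in that sample, as 0 rows had in the other samples (tolerance 1e-06). The labels do not say how the scores were centred or joined across samples, and such steps can remove differences between sample means. That sample also held 41 of the 50 cells whose mean score over 8 measured myeloid or microglial markers (Cst3, Ctsd, Ctss, Ctsb, C1qb, Tyrobp, Apoe and Fcer1g) lay above 1. The trained samples held 3, 4 and 2 such cells and untrained sample 1 held 0. The other 10 markers of that list, among them P2ry12 and Tmem119 of microglia, were not among the 2926 genes measured. Of the well names 66.8% occurred in more than 1 sample, but 0 pairs of cells from different samples had equal values.

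The upstream sequences of these genes are shown because the genes varied together over cells and because the response element is short enough to be read in them. RefSeq promoters (GRCm38.p6) could be matched for 7 of the 9 genes, and Zbp1 and Ifi27l2a are named only. The motif searched, GAAA followed by any 2 bases and a second GAAA, on either strand, is the core of the interferon-stimulated response element, and matches may overlap each other. In the 250 bases before the start it occurred in 5 of the 7 genes and in 2.98% of 32851 promoters. Among genes of the deposited table that had an entry the share was 4.26% (95 of 2232). The lines below give 60 bases of each of the 5, on the strand of the gene, with every base of a match in capitals. Isg15 lies at chr4:156200856-156200915 (minus strand), Ifit1 at chr19:34640769-34640828 (plus strand) and Ifit3 at chr19:34583365-34583424 (plus strand). Bst2 lies at chr8:71537565-71537624 (minus strand) and Phf11b at chr14:59341346-59341405 (minus strand).
Isg15: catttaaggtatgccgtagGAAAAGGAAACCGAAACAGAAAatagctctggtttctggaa
Ifit1: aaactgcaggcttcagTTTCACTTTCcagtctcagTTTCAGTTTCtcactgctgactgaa
Ifit3: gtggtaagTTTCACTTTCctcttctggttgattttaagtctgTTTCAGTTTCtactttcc
Bst2: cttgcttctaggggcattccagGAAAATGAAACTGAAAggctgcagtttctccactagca
Phf11b: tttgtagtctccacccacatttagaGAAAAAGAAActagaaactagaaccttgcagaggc
Isg15 held 3 overlapping matches, from 78 to 57 bases before the start, and Bst2 held 2 overlapping ones, the first beginning 130 bases before it. Both Ifit genes held 2 separate matches on the other strand. Phf11b held 1 match at 50 to 41 bases. The same window of Irf7 and of Lgals3bp had 0 matches, which says only that these letters are not in it. A match is a stretch of letters and no binding was measured.

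Over single cells the 9 genes were high in few cells and varied together. In every sample the median score of every one of the 9 genes lay below 0. Ifi27l2a, a small hydrophobic protein induced by interferon, was above 0 in the most of the 692 cells (32.7%) and in 23.2 to 40.3% of a sample. Zbp1 (34.8%) and Lgals3bp (33.3%) were above it in trained sample 1 (30.3%). Lgals3bp was also above it in untrained sample 2 (30.5 against 23.2%). Ifit3, whose protein joins other IFIT proteins on foreign RNA, was above 0 in the fewest (16.2% of all cells). It ranged from 19 of the 190 cells of untrained sample 2 up to 25.8% of trained sample 1. In trained sample 1 Ifit1 (15.2%), Isg15 (21.2%), Bst2 (22.7%), Irf7 (22.7%) and Phf11b (24.2%) were lower. The median share over the 9 genes was 24.2, 25 and 25.6% in the trained samples and 31.3 and 15.8% in the untrained ones. Over all genes the median share was 25.8, 28.2 and 29.8% in the trained samples and 35.4 and 13.7% in the untrained ones. The share of cells above 0 therefore followed that of the table as a whole from sample to sample. The SD over cells of the 9 genes had a median of 0.566, 0.560 and 0.486 in the trained samples and 0.458 and 0.776 in the untrained ones. In each of the 5 samples it was above the median SD of all genes there, which was 0.478, 0.515 and 0.429 in trained and 0.370 and 0.728 in untrained samples.

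Pearson correlations over cells were taken within each sample, and the cells of a sample share its library and the cell's own depth, so they are given as a description. All 36 pairs of the 9 genes had a positive r in all 5 samples. The share of all gene pairs that were positive in every sample was not counted. The mean r over the pairs was 0.393, 0.299 and 0.296 in the trained samples and 0.271 and 0.261 in the untrained ones. The order of the samples changed with the setting. Spearman's rho averaged 0.268, 0.251 and 0.301 in the trained samples and 0.268 and 0.459 in the untrained ones. By rho 34 of the 36 pairs were above 0 in all 5 samples. Without cells whose mean over the myeloid markers was above 1, Pearson's r averaged 0.419, 0.308 and 0.298 in the trained samples and 0.271 and 0.339 in the untrained ones. Averaged over samples, the median of the 36 pairs was 0.297, against 0.0925 over all 4279275 pairs of genes in the table. Of all gene pairs 1.74% reached the median of the 36. Because most genes were correlated with most others (82.9% of all pairs had a mean r above 0), r was also taken after removing each cell's mean over all other genes. The median of the 36 was then 0.235 and that of all pairs -0.003, and 0.249% of all pairs reached the median of the 36. After that step 34 of the 36 pairs were above 0 in all 5 samples.

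**Figure D1:**
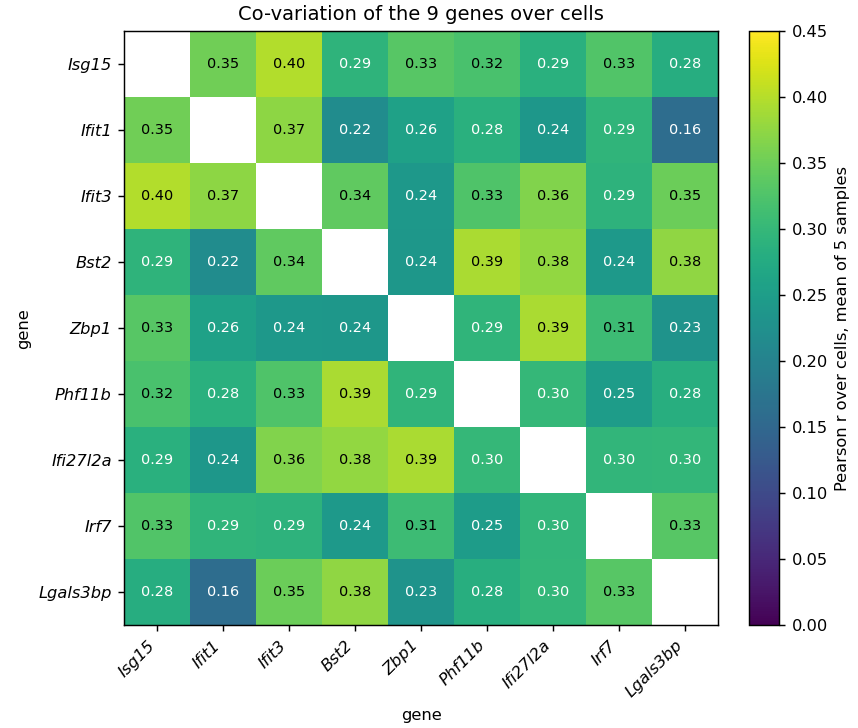
Pearson r over cells for each pair of the 9 genes, averaged over the 5 samples; the colour runs from 0 to 0.45 and each cell of the grid prints its value. All 36 pairs are above 0, from 0.161 for Ifit1 with Lgals3bp to 0.399 for Isg15 with Ifit3.

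The closest pair was Isg15, a ubiquitin-like protein that is joined to other proteins in interferon-treated cells, with Ifit3. Their r was 0.565, 0.414 and 0.265 in the trained samples and 0.280 and 0.470 in the untrained ones, 0.399 on average. Next came Zbp1, a sensor of Z-form nucleic acid, with Ifi27l2a (0.393), and Bst2, which tethers budding virus to the cell surface, with Phf11b (0.393). The loosest pair was Ifit1, which binds RNA caps that lack a methyl group, with Lgals3bp, a secreted glycoprotein that binds galectin-3 (0.161). Isg15, Ifit1 and Ifit3, the classic targets of the response element, had 0.352, 0.399 and 0.374 among themselves. Removing the cell mean left these 3 pairs nearly where they were (0.342, 0.374 and 0.362). It took more from pairs such as Phf11b with Irf7, the factor that amplifies type I interferon production, which had 0.249 before and 0.120 after.

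Cells were also classed by their Cd8a, Cd8b1 and Cd4 scores (the genes of the T cell coreceptors). Within CD8-gated cells the mean r over the 36 pairs was 0.294 (0.166 to 0.473 by sample) and within CD4-gated cells 0.348 (0.322 to 0.368), with 36 pairs above 0 in each (means over 5 samples). In cells above neither gate it was 0.178 (0.130 to 0.240), with 35 of 36 pairs above 0. Each of these classes held at least 16 cells of every sample. Leaving out the cells with a myeloid-marker mean above 1 gave 0.327 over the 36 pairs, against 0.304 with them, and Spearman's rho gave 0.310.

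Each cell was also described by how many of the 9 genes it scored above 0. Of the 692 cells 24.1% had 0 of the 9, 15.5% had 5 or more and 14 cells had all 9. Cells with 0 made up 18.2, 25.8 and 19% of the trained samples and 17.4 and 34.7% of the untrained ones. Cells with 5 or more made up 13.6, 16.1 and 17.3% of the trained samples and 23.6 and 7.9% of the untrained ones, so the 2 untrained samples lay on either side of the trained ones. Among CD8-gated cells 15.1% (24 cells) had 5 or more, among CD4-gated cells 26% (38 cells), among cells above both gates 35.1% (20 of 57) and among cells above neither gate 7.6% (25 of 330). The CD4-gated share was above the CD8-gated one in each of the 5 samples: 17.6, 11.8 and 20.0% of CD8-gated cells in the trained and 16.7 and 9.4% in the untrained samples, against 31.3, 21.1 and 31% of CD4-gated cells in the trained and 31.4 and 17.9% in the untrained samples. Cells with many of the 9 genes above 0 also had many other genes above 0. In cells with 5 or more, the median share of all genes above 0 was 40.4, 45.5 and 45.1% in the trained and 50.1 and 24.4% in the untrained samples. In cells with 0 of the 9 it was 8.1, 8.2 and 10.4% in the trained and 12.5 and 7.8% in the untrained samples. The part of that general level in these counts was not tested beyond the residual correlations above.

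**Figure D2:**
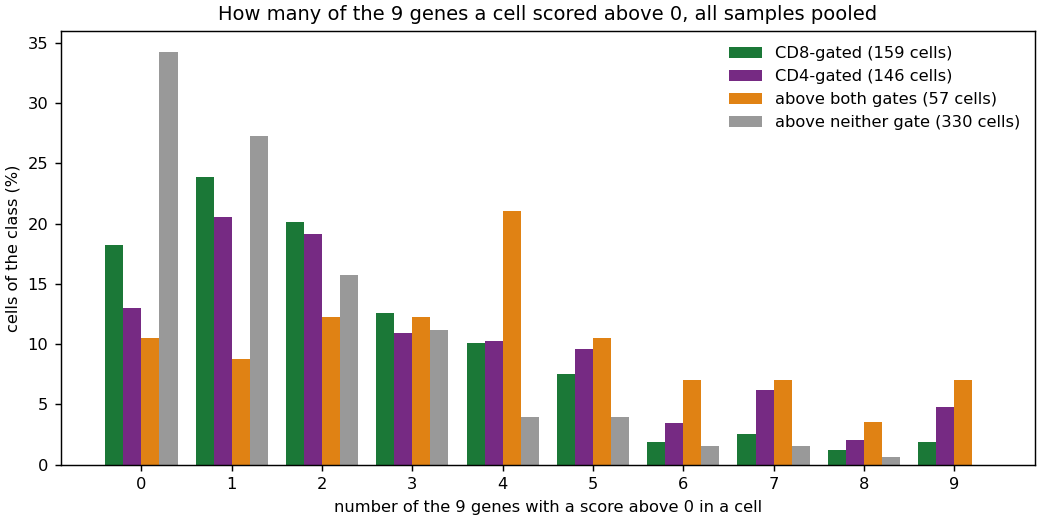
Percent of the cells of each class (vertical axis) by the number of the 9 genes with a score above 0 (horizontal axis), all samples pooled. Cells above neither gate pile up at 0 and 1 gene, and 15.1% of CD8-gated cells, against 26% of CD4-gated cells, lie at 5 or more.

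To see which other genes varied with the group, every gene was correlated over cells with the mean of the 9 standardised scores (a member with the mean of the other 8). Among the 10 genes outside the 9 with the highest r, averaged over the 5 samples, were Shisa5 (0.548), Cmpk2 (0.544), a mitochondrial nucleotide kinase, Parp9 (0.542), B2m (0.532), the light chain of class I MHC, and Ms4a4b (0.528), a membrane protein of T cells. Phf11a (0.528), Iigp1 (0.528), an immunity-related GTPase, Trim30a (0.510) and Ifi47 (0.510), another GTPase of that family, were also among them. A positive r in all 5 samples was a condition of this ranking, which 1972 of the 2917 genes outside the 9 met. All of the genes named but Ms4a4b belonged to 5 interferon lists. Of the 100 genes most like the group 64 were in those lists, which held 3.70% of the 2917 genes outside the 9. The lists were chosen with earlier results of these data known, so this count is a description and not independent support. The median r was 0.376 over the genes of the lists and 0.150 over all 2917.

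The lists differed among themselves. Class I antigen presentation and immunoproteasome genes had a median of 0.405 (13 measured, 9 among the first 100). Interferon-inducible GTPases and Schlafens also had 0.405 (16 measured, 11 among the first 100). Antiviral effectors and other interferon-stimulated genes had 0.382 (53 measured, 39 among the first 100), with the immunoproteasome subunit Psmb10 counted among them. The receptors and signalling genes had 0.244 (18 measured, 3 among the first 100), and nucleic acid sensors 0.225 (8 measured, 2 among the first 100). Not every gene of the pathway went with the group: Slfn9 had the lowest r of the list genes, -0.402, Ifnar1, a subunit of the type I interferon receptor, had -0.229 and Eif2ak2, the RNA-activated kinase PKR, had -0.219. Against the other 8, the members themselves ranked 4 (Ifit3, r 0.543), 10 (Isg15, 0.520), 11 (Ifi27l2a, 0.514), 17 (Bst2, 0.493), 18 (Phf11b, 0.489), 25 (Irf7, 0.471), 29 (Lgals3bp, 0.458), 31 (Zbp1, 0.453) and 39 (Ifit1, 0.429) of 2926. With the cell mean removed, 72 of the first 100 genes were in the lists.

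**Figure D3:**
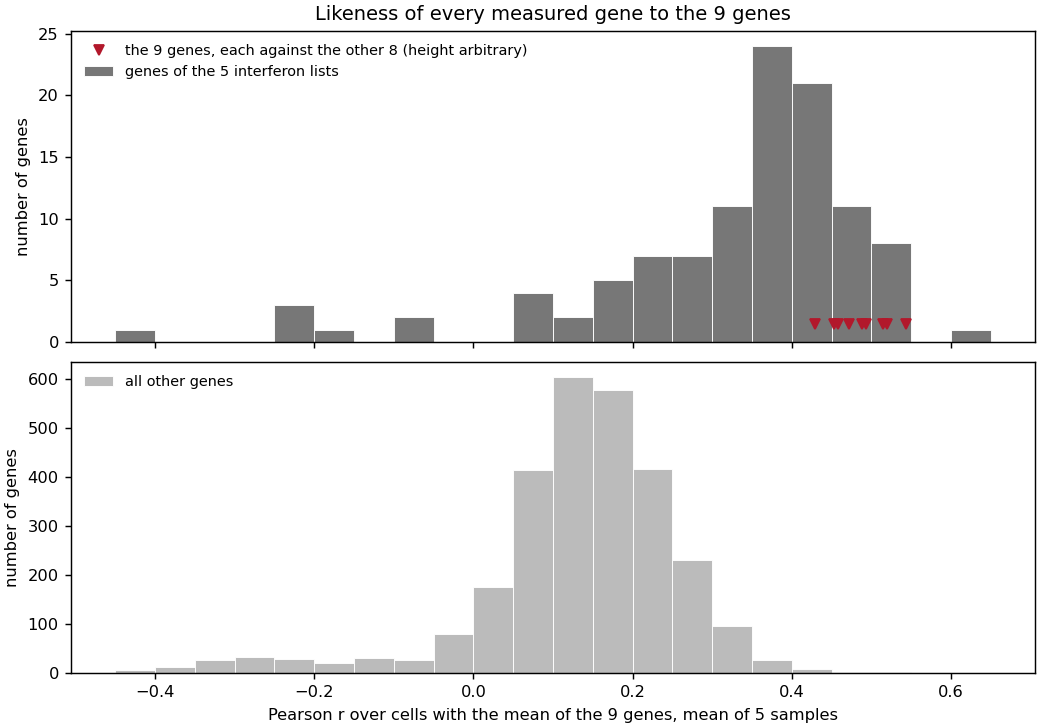
Number of genes (vertical axes) by Pearson r over cells with the mean of the 9 genes, averaged over 5 samples (horizontal axis), for the interferon list genes (upper panel) and all remaining genes (lower panel). Red triangles, at an arbitrary height, mark the 9 genes against the other 8; they lie between 0.429 and 0.543, to the right of the median of 0.150 over all genes outside the 9.

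The nearest neighbour of a gene, the one with the highest mean r over cells, differed between the members. Isg15 was nearest to Ifit3 (0.399) and Ifit3 to Cmpk2 (0.471). Bst2 (0.422) and Lgals3bp (0.466) were both nearest to B2m. Zbp1 was nearest to Ifi35 (0.450), Irf7 to Ifi47 (0.417) and Phf11b to Phf11a (0.461), a paralog in the same gene cluster whose reads may not be fully separable from those of Phf11b. The tightest of these was Ifi27l2a with Ly6a (0.517), the Sca-1 surface antigen, with r between 0.431 and 0.592 over the 5 samples. Ifi27l2a was also the member with the highest r with T cell markers. Its mean r with the mean of 9 measured T cell markers was 0.475, against 0.147 to 0.318 for the other members. Lgals3bp was the one most tied to myeloid markers, with a mean r of 0.434 (0.354 to 0.487 over samples), followed by Bst2 with 0.245. The other 7 members had -0.051 to 0.104. The r with both marker sets were taken without removing the cell mean. The part of the general level of a cell in them was not tested.

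Whether running changed these genes was asked first over all sorted cells. The mean score per sample was compared between trained and untrained samples with limma across all 2926 genes, with Benjamini-Hochberg adjustment and a threshold of 0.05. Since centring or integration of the scores by sample may have taken out differences between sample means, a difference near 0 here does not show that the genes were unchanged. None of the 9 genes passed, and neither did any other gene (0 of 2926, 0.0%), while 7.72% of genes, Lgals3bp among them, had an unadjusted p under 0.05. The differences of the 9 genes ran from -0.103 to 0.041, with a median of -0.018 and SEs of 0.022 to 0.035, and the median of all genes was 0.000. Lgals3bp had mean scores of -0.116, -0.148 and -0.121 in the trained samples and -0.028 and -0.023 in the untrained ones. All 3 trained samples lay below both untrained samples. The difference was -0.103 ± 0.022 (SE; 95% limits -0.152 and -0.053) with an adjusted p = 0.317 by limma. Irf7 was the other gene whose groups did not overlap, with -0.089, -0.110 and -0.092 in the trained and -0.048 and -0.065 in the untrained samples (difference -0.041 ± 0.022, adjusted p = 0.708, limma). Over all genes 14.0% had trained samples wholly below the untrained ones.

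Values of myeloid markers stand beside those of Lgals3bp here. In untrained sample 2 its mean was 0.743 in the 41 cells with a myeloid-marker mean above 1 and -0.234 in the other 149 cells. All 8 myeloid markers were lower in trained than in untrained samples over all cells, by 0.075 to 0.154, and none passed the threshold. The mean over these markers was -0.108, -0.162 and -0.116 in the trained and -0.066 and 0.034 in the untrained samples. Without the cells above 1 the difference of Lgals3bp was -0.026 (adjusted p = 0.998, limma), and without untrained sample 2, which held 41 of those 50 cells, it was -0.100 (adjusted p = 0.999, limma). Untrained sample 1 held 0 such cells. Within CD8-gated cells all 8 markers were higher in trained samples, by 0.053 to 0.262 with none past the threshold, and Lgals3bp had a difference of -0.142, the lowest of the 9. The part of myeloid cells in the difference of Lgals3bp was not tested further.

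Apart from Irf7, the other members had trained and untrained samples that overlapped. Ifi27l2a had 0.002, -0.001 and -0.022 in the trained samples and 0.047 and -0.026 in the untrained ones. Isg15 had -0.071, -0.049 and -0.048 in the trained samples and 0.001 and -0.057 in the untrained ones, so the groups overlapped. Bst2 ranged from -0.093 to 0.042 among the trained samples and had 0.027 and -0.020 in the untrained ones. The widest 95% limits of a training difference over all cells were those of Bst2, -0.107 and 0.047. Of the genes in the interferon lists 0 passed the threshold in either direction, with 64 above 0 and 44 below. Those with the smallest p were Ccl5 (0.1005 ± 0.035, adjusted p = 0.518), Shisa5 (0.056 ± 0.022, adjusted p = 0.559) and Slfn2 (0.073 ± 0.030, adjusted p = 0.563), all by limma and all higher in trained samples.

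**Figure D4:**
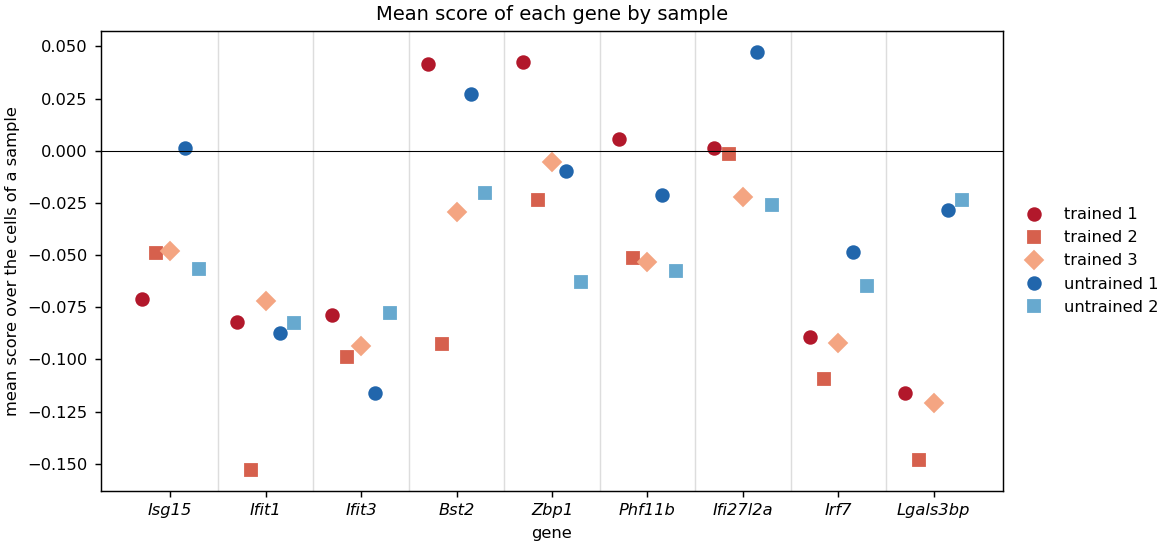
Mean score over the cells of a sample (vertical axis) for each of the 9 genes (horizontal axis), trained samples in red shades and untrained samples in blue shades. Irf7 and Lgals3bp are the only 2 of the 9 in which the 3 trained samples and the 2 untrained samples do not overlap.

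Cells were then split by coreceptor scores. Cells whose Cd8a and Cd8b1 scores averaged more than 0, with a Cd4 score not above 0, are called CD8-gated (23% of all cells). Cells with the opposite pattern are called CD4-gated (21.1%). Another 57 cells were above both gates and 330 above neither. The gate is a range of scores, and 50 CD8-gated and 34 CD4-gated cells lay within 0.25 of it. T cell markers were on the whole higher under the gates: Cd3e averaged 0.302 in CD8-gated, 0.201 in CD4-gated and -0.153 in ungated cells. Classes were compared over 2923 genes, leaving out the 3 gate genes, in a fit that took sample as a block.

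CD8-gated cells had lower mean scores than CD4-gated cells for 8 of the 9 genes (61.5% of all genes had that sign), but none of the 9 passed the threshold. Across all 2923 genes, 5 (0.171%) passed, 4 of them higher in CD8-gated cells; with scores divided by their SD 18 were higher and 35 lower, and with cells centred 7 were higher and 3 lower, none among the 9. The median difference, CD8-gated minus CD4-gated, was -0.144 over the 9 genes and -0.027 over all genes. Of the 9, 5 had an unadjusted p under 0.05, all lower (Ifi27l2a, Lgals3bp, Ifit3, Bst2 and Ifit1), against 9.31% of all genes on that side. The sign was negative in all 5 samples for Lgals3bp, Ifit3, Bst2 and Irf7, and for 9.37% of all genes.

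Ifi27l2a had 0.068, 0.043 and -0.087 in CD8-gated cells of the trained samples and 0.001 and 0.001 in those of the untrained samples. In CD4-gated cells it had 0.231, 0.016 and 0.351 in the trained and 0.188 and 0.626 in the untrained samples. Trained sample 2 was the only 1 of 5 in which it was not lower in CD8-gated cells. The difference was -0.277 ± 0.081 (SE; 95% limits -0.450 and -0.105; adjusted p = 0.185, limma), and without untrained sample 2 it was -0.190.

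Lgals3bp had -0.309, -0.232 and -0.101 in CD8-gated cells of the trained samples and 0.013 and -0.158 in those of the untrained samples. In CD4-gated cells it had 0.236, -0.015 and -0.040 in the trained and 0.074 and 0.331 in the untrained samples. It was lower in CD8-gated cells in every sample, by 0.061 to 0.544, and the difference was -0.275 ± 0.077 (adjusted p = 0.178, limma). Of the myeloid markers all 8 were lower in CD8-gated than in CD4-gated cells, by 0.043 to 0.397, and 1 of them, Ctsb, a lysosomal protease, passed the threshold. Without the cells with a myeloid-marker mean above 1 the difference of Lgals3bp was -0.198 and that of Ifi27l2a -0.340, and the adjusted p of both was 0.388 (limma).

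Ifit3 was the steadiest in CD8-gated cells, at -0.122, -0.145 and -0.105 in the trained and -0.097 and -0.140 in the untrained samples. In CD4-gated cells it had 0.111, -0.065 and -0.041 in the trained and 0.001 and 0.256 in the untrained samples. The CD8-gated and CD4-gated ranges did not overlap, and the difference was -0.174 ± 0.065 (adjusted p = 0.274, limma; -0.118 without untrained sample 2). Bst2 (-0.151 ± 0.067, adjusted p = 0.344), Ifit1 (-0.144 ± 0.063, adjusted p = 0.339) and Phf11b (-0.138 ± 0.077, adjusted p = 0.464) had differences of like size (limma). Phf11b was split, near -0.385 in trained sample 1 and untrained sample 2 and between -0.020 and 0.080 in the other 3. Isg15 and Zbp1 had hardly any difference (-0.001 ± 0.065 and 0.003 ± 0.058), with 95% limits of -0.141 and 0.138 for Isg15 and -0.120 and 0.127 for Zbp1.

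Of the genes in the interferon lists 2 passed the threshold, both higher in CD8-gated cells: Ccl5 (0.659 ± 0.104, adjusted p = 0.013), a chemokine of cytotoxic T cells, and Ly6c2 (0.409 ± 0.067, adjusted p = 0.013), a surface antigen of memory CD8 T cells (limma). Both were higher in CD8-gated cells in 5 of 5 samples. They were 1.85% of the list genes, while 0.137% of all genes passed as higher. With scores divided by their SD, 2 list genes (1.85%) passed as higher and 5 (4.63%) as lower in CD8-gated cells. Among all genes 0.616% were then higher and 1.20% lower. Over these lists as a whole 84 differences were below 0, with a median of -0.071. Leaving out trained sample 1, or the cells with a myeloid-marker mean above 1, left 0 genes of the table past the threshold, Ccl5 and Ly6c2 included.

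**Figure D5:**
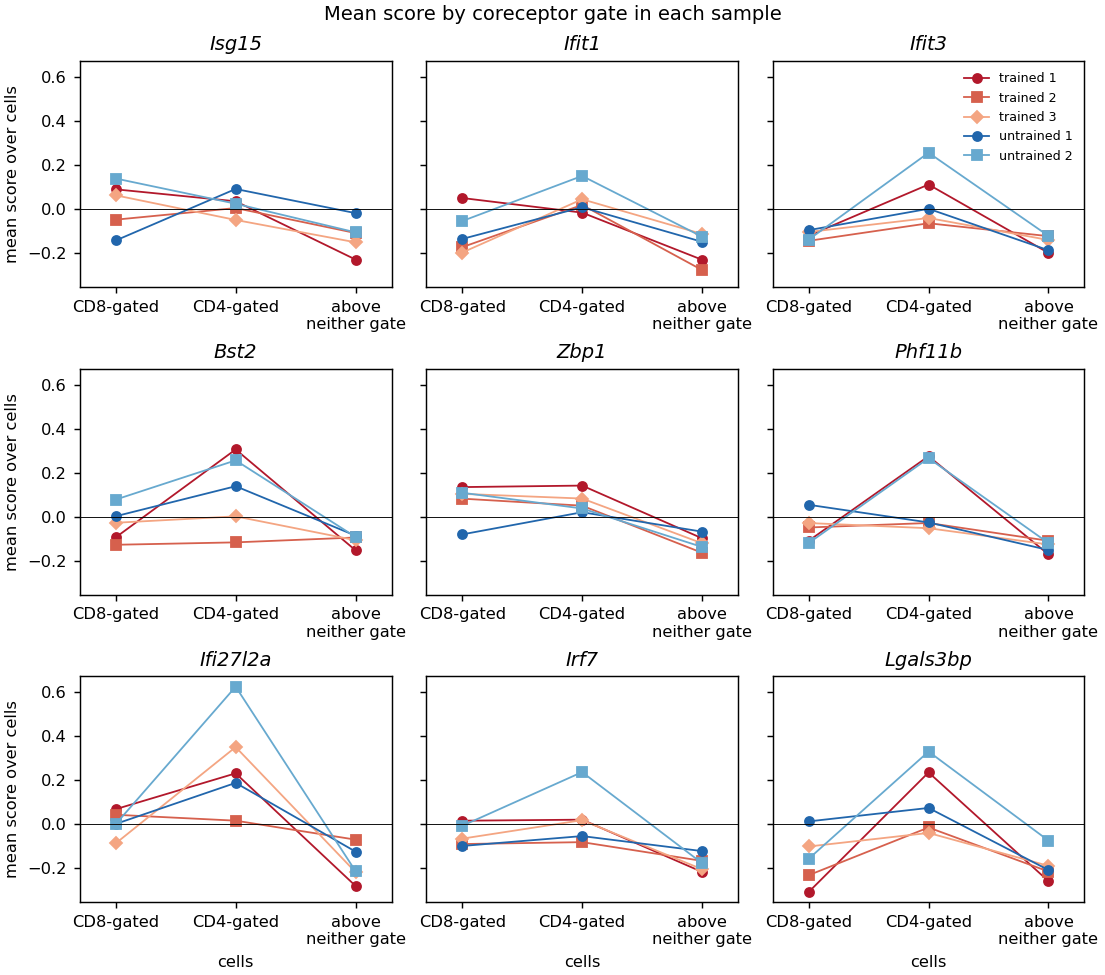
Mean score over cells (vertical axis) of each of the 9 genes in CD8-gated cells, CD4-gated cells and cells above neither gate (horizontal axis), with 1 line per sample, trained in red shades and untrained in blue shades. Ifi27l2a and Lgals3bp have the largest CD8-gated minus CD4-gated differences, -0.277 and -0.275, and cells above neither gate lie below 0 in all 5 samples for all 9 genes.

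Cells above at least 1 gate (362) had higher mean scores than cells above neither (330) for all 9 genes, and all 9 passed the threshold. So did most of the table: 2070 of 2923 genes (70.8%) passed and 66.4% passed in that direction, so this says little about the 9 in particular. The median difference was 0.181 over the 9 and 0.125 over all genes. Ifi27l2a had the largest difference of the 9, 0.350 ± 0.051 (adjusted p = 9.1e-05, limma). Its gated means were 0.174, 0.045 and 0.152 in the trained and 0.144 and 0.327 in the untrained samples. Its ungated means were -0.281, -0.070 and -0.218 in the trained and -0.125 and -0.214 in the untrained samples, so the 2 sets did not overlap. Ifit3 had the smallest, 0.114 ± 0.035 (adjusted p = 0.011, limma).

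Gated and ungated cells differed in their general level too. With the cells of all samples pooled, the median share of all genes above 0 was 34.7% in CD8-gated, 35.6% in CD4-gated and 13.4% in ungated cells. After subtracting each cell's mean over all genes, 723 genes and 1 of the 9, Ifi27l2a (0.222, adjusted p = 0.005, limma), passed the threshold, and the median of all genes was -0.0023. Of the genes past the threshold 56.8% were then higher in gated cells, against 93.8% before. Ifit3 was then -0.013, and the other 7 had 0.019 to 0.071. With medians in place of means over cells 3 of the 9 passed. Without that subtraction 90 genes of the interferon lists (83.3%) passed as higher in gated cells and 6 (5.56%) as lower, against 66.4 and 4.41% of all genes. With it 26 (24.1%) passed as higher and 8 (7.41%) as lower, against 14.1 and 10.7% of all genes. Without it, the highest by p were B2m (0.492 ± 0.034, adjusted p = 5.6e-07), Ly6a (0.548 ± 0.046), the proteasome activator Psme2 (0.414 ± 0.035), the class I heavy chain H2-K1 (0.472 ± 0.042) and the immunoproteasome subunit Psmb8 (0.471 ± 0.046). On the other side Slfn9 (-0.546 ± 0.055), Slfn8 (-0.306 ± 0.045), Eif2ak2 (-0.302 ± 0.050), Ifnar1 (-0.183 ± 0.040) and Ube2l6 (-0.156 ± 0.037), the conjugating enzyme for ISG15, were lower in gated cells.

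Training was then compared within the classes. In CD8-gated cells 0 of 2923 genes (0.0%) passed (9.0% at an unadjusted p under 0.05, none of them among the 9). The differences of the 9, trained minus untrained, ran from -0.142 to 0.093 with a median of -0.006, and the median of all genes was 0.046. Bst2 was the only 1 of the 9 whose groups did not overlap: -0.095, -0.128 and -0.028 in the trained samples and 0.001 and 0.077 in the untrained ones (-0.123 ± 0.077, adjusted p = 0.634, limma). Trained samples lay wholly below the untrained ones for 3.49% of all genes. Zbp1 was at the other end of the 9, with 0.134, 0.081 and 0.103 in the trained samples and -0.081 and 0.108 in the untrained ones (0.093 ± 0.079, adjusted p = 0.742, limma).

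In CD4-gated cells 0 of 2923 genes (0.0%) passed as well (2.43% at an unadjusted p under 0.05, none among the 9). Of the 9 genes 8 were lower in the trained samples, against 62.9% of all genes, with a median of -0.106 for the 9 and -0.028 for all genes. That median rested on untrained sample 2, without which it was 0.007. Ifi27l2a had the largest difference, with 0.231, 0.016 and 0.351 in the trained samples and 0.188 and 0.626 in the untrained ones (-0.207 ± 0.129, 95% limits -0.486 and 0.071, adjusted p = 0.999, limma). The trained values fell on both sides of the lower untrained one. Zbp1 was the exception, at 0.141, 0.049 and 0.082 in the trained and 0.020 and 0.037 in the untrained samples, without overlap (0.063 ± 0.083, adjusted p = 0.999, limma). Of all genes 4.31% had trained samples wholly above the untrained ones. The difference between the training effects in CD8-gated and CD4-gated cells did not pass the threshold for any of the 9 genes or of all 2923 (0.0%; 5.92% at an unadjusted p under 0.05, none among the 9). It was largest for Ifi27l2a (0.215 ± 0.156, 95% limits -0.113 and 0.542, adjusted p = 0.799, limma).

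Among the genes in the interferon lists, 0 passed for training in either class. The smallest p in CD8-gated cells were those of Gbp2, a guanylate-binding protein (0.217 ± 0.076), the kinase Jak1 (0.204 ± 0.075) and Ifngr1, a chain of the type II interferon receptor (0.228 ± 0.086), all with an adjusted p = 0.509 (limma). In CD4-gated cells they were those of the proteasome activator Psme1 (-0.216 ± 0.101), the RNA-editing enzyme Adar (-0.287 ± 0.137) and the class Ib molecule H2-T23 (-0.203 ± 0.103), with an adjusted p = 0.999 (limma).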

How the data were processed

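Single CD3+ T cells were sorted into 384-well plates after a 37% Percoll gradient and read by SORT-seq. Per the submitters' processing notes the authors used Cell Ranger; its version, the genome build and later steps were not given in the sources used here. The deposited table holds scores, not counts, so no count test was run and depth is unknown. A second table equal to its first 384 columns within 5e-10 was not used. Mean scores per sample, or per sample and class, were fitted with limma 3.58.1 (R 4.3.3) over all genes, with Benjamini-Hochberg adjustment; tests are two-sided. The code was tested on simulated data. Correlations used numpy 2.4.6 (Python 3.11.15). Comparisons of classes had sample as a block.

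The 9 genes, the interferon lists and the markers were chosen with earlier results of these data known. Of the lists, the text names up to 5 genes per direction past the threshold, or the 3 with the smallest p, and the 10 genes most like the group, except an item not reported here. Ctsb, and list genes named for a low r, were named after their values were seen.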

Additional observations from a re-analysis of the deposited data

How the results depend on the processing

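The limits are few samples, unknown depth and scores of unstated scale. Trained samples could not be paired with untrained ones because replicate numbers follow accession order only. In every comparison 0 of the 9 genes passed under each setting, except gated minus ungated cells: 9 without each sample in turn, 8 with the gate at 0.25, 3 with medians over cells (1021 genes, median difference 0.060) and 1 with cells centred, a setting chosen after seeing the data (723 genes, median difference 0.053, Ifit3 -0.013); the cause was not tested. There, leaving out 1 sample gave 1753 to 2179 genes and medians of 0.156 to 0.198. Genes past the threshold for training numbered 0 to 3 over all cells (3 without untrained sample 1) and 0 in CD8-gated and CD4-gated cells when 1 sample was left out; medians over cells gave 12 in CD8-gated cells but 1 in CD4-gated cells, and the gate at 0.25 gave 1 in CD8-gated cells. CD8-gated minus CD4-gated cells gave 0 to 7 (0 without trained sample 1, 2 without trained sample 2 and without trained sample 3), 53 with scores divided by their SD, 0 with medians, 0 without myeloid-marker cells and 10 with cells centred. The difference between training effects gave 0 to 10 (10 without untrained sample 1). The median difference of the 9 moved as follows. Over all cells it was -0.049 to 0.0029 leaving out 1 sample, 0.015 with medians and -0.045 in cells with a T cell marker mean above 0. In CD8-gated cells it was -0.039 to 0.016 leaving out 1 sample and -0.051 with cells centred. In CD4-gated cells it was -0.202 to 0.0074 and 0.045 with medians. For CD8-gated minus CD4-gated cells it was -0.178 to -0.096 and -0.045 with medians. For the difference between training effects it was -0.0046 to 0.212 and -0.058 with the gate at 0.25. The mean r of the 36 pairs was 0.282 to 0.315 leaving out 1 sample and 0.235 in residuals.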
